A study of Mus musculus with 24 samples.

Results

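Gfra3 and 8 genes that surround it in the enteric nervous system were followed through the colon of mice with chemically induced colon tumors. The 9 genes were the co-receptors Gfra1, Gfra2 and Gfra3, the shared receptor Ret, the ligands Gdnf, Artn and Nrtn, and the glial genes Sox10 and S100b. They were found through the transcript accession of each probe and had 13 probes among the 56605 measured, or 9 of the 22911 gene symbols that the accessions could be matched to. The question was whether Gfra3 followed the glial genes from array to array and from group to group.

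Expression was measured on 24 one-color microarrays, each holding 1 sample of colon RNA from C57BL/6J mice, with 4 samples in each of 6 groups. All mice were 7 weeks old when purchased, and all received the carcinogen azoxymethane and then cycles of the colitis agent dextran sulfate sodium. Males (M) and intact females (F) were sham-operated and F(OVX) mice were ovariectomized females. LFD was a diet with 10% and HFD a diet with 45% of its energy as fat, fed for 14 weeks. Every group carried the tumor treatment, so no group shows a healthy colon, and the animals put on arrays were those nearest to their group's mean body weight. Values are log2 signals after quantile normalization over the 24 arrays, where 1 unit is a doubling. They compare arrays for 1 probe and do not rank genes against each other.

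The glial cell line-derived neurotrophic factor (GDNF) family signals through a pair of proteins. A co-receptor of the GFRα family, anchored in the membrane by a lipid, binds the ligand, and the complex then activates the tyrosine kinase Ret. Each co-receptor has a preferred ligand, which is GDNF for GFRα1, neurturin for GFRα2 and artemin for GFRα3. GDNF, Ret and GFRα1 are needed for neural crest cells to colonize the gut, whereas artemin and GFRα3 are best known from sympathetic and sensory neurons. Enteric glia surround the neurons of the gut wall, and SOX10 and S100B are the proteins by which they are usually recognized.

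Several arrays stood apart before any gene of interest was considered. Hoxb13, a gene of the distal end of the colon, had a log2 signal of 2.18 and 5.04 in M + LFD replicates 1 and 2, and of 12.58 to 14.79 on the other 22 arrays. Diet results in males are therefore given with and without those replicates. The arrays differed in brightness, with 40.5% to 61.9% of probes well above background, the lowest shares being 40.5% in F(OVX) + LFD replicate 3 and 43.6% in F + HFD replicate 2. Males, females and OVX females lay on 1 slide each, so that sex or ovariectomy and slide cannot be told apart. On every slide LFD filled the first and HFD the second row, so that diet cannot be told apart from the row of the slide.

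Gfra3 was well above background on all 24 arrays, between 7.13 and 9.13. In males its log2 signal was 7.79, 7.67, 8.29 and 8.07 on LFD (replicates 1 to 4) and 8.21, 8.55, 8.50 and 7.94 on HFD. In females it was 7.95, 8.31, 7.34 and 7.98 on LFD and 8.66, 8.61, 8.27 and 8.51 on HFD. In OVX females it was 8.41, 8.12, 7.95 and 7.13 on LFD and 8.50, 9.13, 8.51 and 8.80 on HFD. All F(OVX) + HFD arrays were above all F(OVX) + LFD arrays, while the diets overlapped in males and also in intact females, there through F + LFD replicate 2 alone.

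The group means put Gfra3 in the order F(OVX) + HFD (8.73 ± 0.30, SD, n = 4), F + HFD (8.51 ± 0.17), M + HFD (8.30 ± 0.28), M + LFD (7.95 ± 0.28), F(OVX) + LFD (7.90 ± 0.55) and F + LFD (7.89 ± 0.40). The ranges of all neighbors in this order overlapped, and the 3 HFD groups came before the 3 LFD groups. The HFD minus LFD difference was 0.34 ± 0.20 (SE) for males, 0.62 ± 0.21 for intact females and 0.83 ± 0.28 for OVX females. Gfra3 had been singled out by the study on the female and OVX female differences, so those values are a description and carry no test. The study found it in the female and OVX female lists and not in the male list, so the male result is not independent of that choice. In males the difference did not pass (limma adjusted p = 0.849, exact permutation p = 0.143). Without the 2 low-Hoxb13 arrays it was 0.12 in males, and the difference averaged over males, females and OVX females went from 0.60 ± 0.14 to 0.52. These are bulk samples, in which fewer cells of a type and less RNA per cell cannot be told apart.

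**Figure D1:**
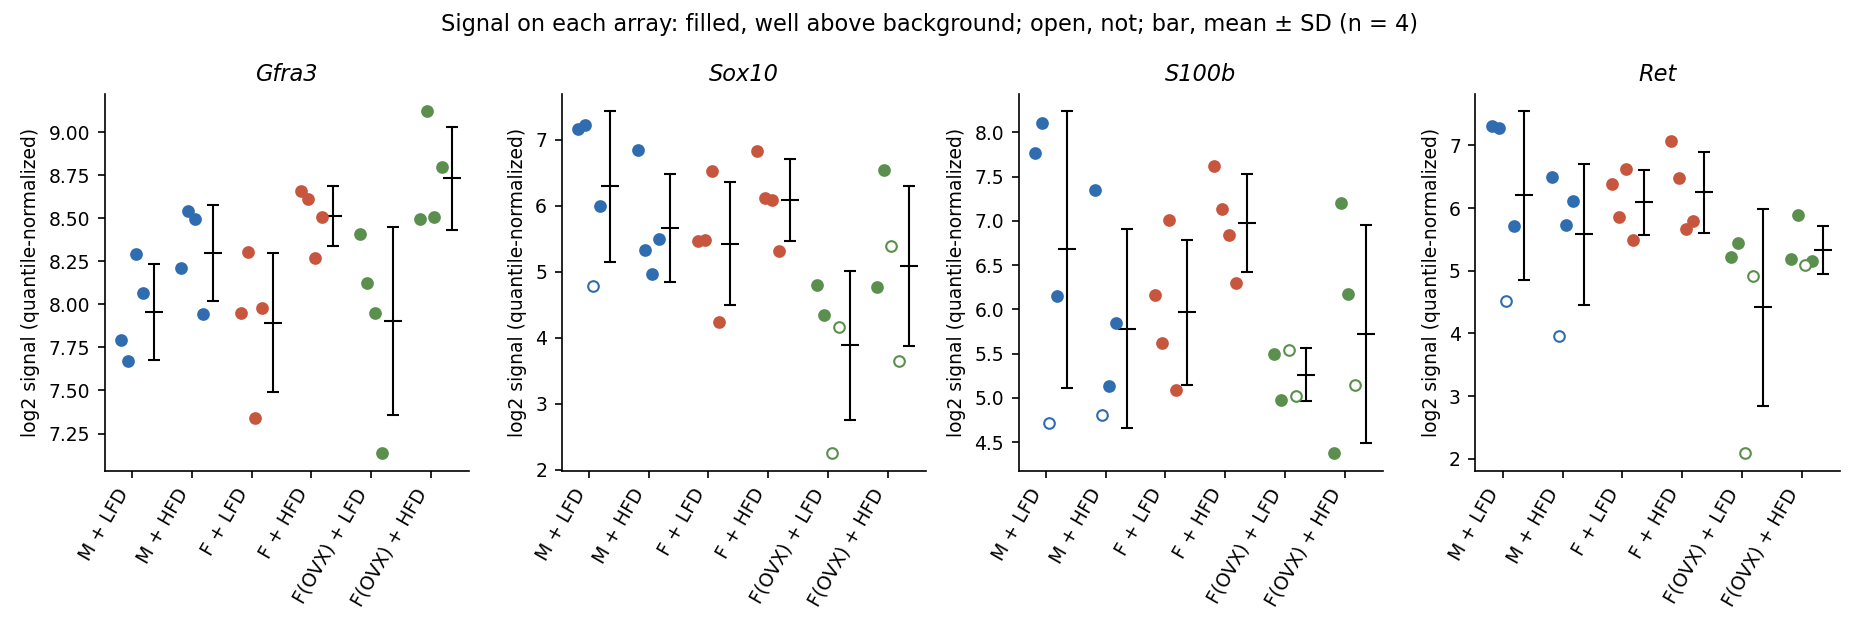
Log2 signal of Gfra3, Sox10, S100b and Ret on each of the 24 arrays by group, with filled points for arrays on which the probe was well above background, open points for those on which it was not, and bars for the mean ± SD of 4 arrays. Gfra3 is filled throughout and spans 1.99 log2 units, whereas Sox10 spans 4.98, S100b 3.73 and Ret 5.22, and M + LFD replicates 1 and 2 are the highest of their group for Sox10, S100b and Ret and the lowest for Gfra3.

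The glial genes Sox10 and S100b spread more widely over the arrays than Gfra3. Sox10, the transcription factor that keeps neural crest cells in the glial lineage, was well above background on 19 of 24 arrays. Its log2 signal in males was 7.16, 7.22, 4.79 and 6.0 on LFD and 6.85, 5.33, 4.97 and 5.50 on HFD. In females it was 5.47, 5.48, 6.53 and 4.23 on LFD and 6.83, 6.12, 6.09 and 5.32 on HFD. In OVX females it was 4.80, 4.34, 2.24 and 4.16 on LFD and 4.77, 6.54, 5.39 and 3.65 on HFD. The highest values were those of M + LFD replicates 1 and 2, and 4 of the 5 arrays without a clear signal were from OVX females.

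S100b, which encodes a calcium-binding protein abundant in glia, was also well above background on 19 arrays. Its log2 signal in males was 7.76, 8.10, 4.72 and 6.15 on LFD and 7.34, 4.81, 5.14 and 5.84 on HFD. In females it was 6.16, 5.62, 7.00 and 5.08 on LFD and 7.62, 7.13, 6.84 and 6.29 on HFD. In OVX females it was 5.50, 4.98, 5.55 and 5.02 on LFD and 4.37, 7.2, 6.17 and 5.15 on HFD. In intact females all HFD arrays were above the LFD arrays other than replicate 3, and the diets overlapped in every sex and surgery. Group means of both glial genes rose from LFD to HFD among intact females, as for Gfra3 (Sox10 5.43 to 6.09, S100b 5.97 to 6.97). OVX mice showed the same direction (3.89 to 5.09 and 5.26 to 5.72). Male means fell (6.30 to 5.66 and 6.68 to 5.78), unlike that of Gfra3, though neither glial gene fell without the low-Hoxb13 arrays. Male and OVX means include arrays without a clear signal.

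S100b is the glial gene of the set with a start site in the RefSeq promoter table (GRCm38.p6), and its upstream sequence is shown because S100b was the only member besides Gfra3 called in the diet comparison of females. The 250 bases before the start, chr10:76253586-76253835 on the plus strand, are given with CCAAT boxes (CCAAT, or ATTGG on the other strand) in capitals.
S100b: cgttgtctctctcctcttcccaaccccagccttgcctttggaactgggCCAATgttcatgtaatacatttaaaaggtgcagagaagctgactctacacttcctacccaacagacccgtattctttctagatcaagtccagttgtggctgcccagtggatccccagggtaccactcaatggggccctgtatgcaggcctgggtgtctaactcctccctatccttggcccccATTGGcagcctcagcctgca
It held 2 CCAAT boxes, a motif found in 33.8% of the 32851 promoter windows of that length. Neither SOX-type motif searched on both strands, ACAATG (10.7% of all windows) or ACAAAG (16.5%), was in these letters. The same held for all 6 windows of the 5 member genes in the table, against 25.2% of all windows with at least 1 of these 2 motifs.

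Ret, the receptor kinase that enteric neurons and their precursors carry, followed Sox10. Its log2 signal in males was 7.31, 7.28, 4.51 and 5.71 on LFD and 6.50, 3.97, 5.73 and 6.12 on HFD. In females it was 6.38, 5.85, 6.63 and 5.49 on LFD and 7.07, 6.47, 5.66 and 5.79 on HFD. In OVX females it was 5.22, 5.44, 2.09 and 4.92 on LFD and 5.19, 5.89, 5.09 and 5.16 on HFD. Every F + LFD array was above every F(OVX) + LFD array, though F + LFD replicate 4 and F(OVX) + LFD replicate 2 almost met, and the value of 2.09 came from the dimmest array.

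Among the other co-receptors, Gfra2 was measured on every array by its brighter probe, at 6.67 to 9.09, with group means from 7.58 ± 0.73 (M + HFD) to 8.22 ± 0.62 (F + HFD). The spread within groups exceeded the differences between them. Its second probe was well above background only in M + HFD replicate 2 and F(OVX) + HFD replicate 2, at 6.35 and 5.77, and the 2 probes thus disagreed. Gfra1, the co-receptor that GDNF prefers, was well above background by its brighter probe only in M + LFD replicates 1 and 2, at 3.86 and 4.47, which are the arrays with low Hoxb13. Its second probe was detected in the same replicates and in M + HFD replicate 1, at 3.69, 4.29 and 3.61. No comparison of groups could therefore be made for Gfra1.

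The ligands are secreted proteins. Nrtn, which encodes neurturin, lay between 8.48 and 10.08 on all 24 arrays, with group means from 8.97 ± 0.43 in F(OVX) + LFD to 9.42 ± 0.45 in M + LFD. Artn, which encodes artemin, lay between 5.79 and 7.70, with means from 6.66 ± 0.34 in M + LFD to 7.05 ± 0.45 in F + LFD. Neither set apart any group, and Artn was not highest where Gfra3 was highest. The brighter Gdnf probe was well above background on 22 arrays, with a mean of 6.11 ± 0.47 in M + LFD, 5.43 ± 0.58 in M + HFD, 5.81 ± 0.42 in F + LFD, 5.80 ± 0.14 in F + HFD, 5.24 ± 0.36 in F(OVX) + LFD and 5.59 ± 0.79 in F(OVX) + HFD. The second Gdnf probe was detected on 1 array, M + HFD replicate 2, which was also 1 of the 2 with the second Gfra2 probe.

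**Figure D2:**
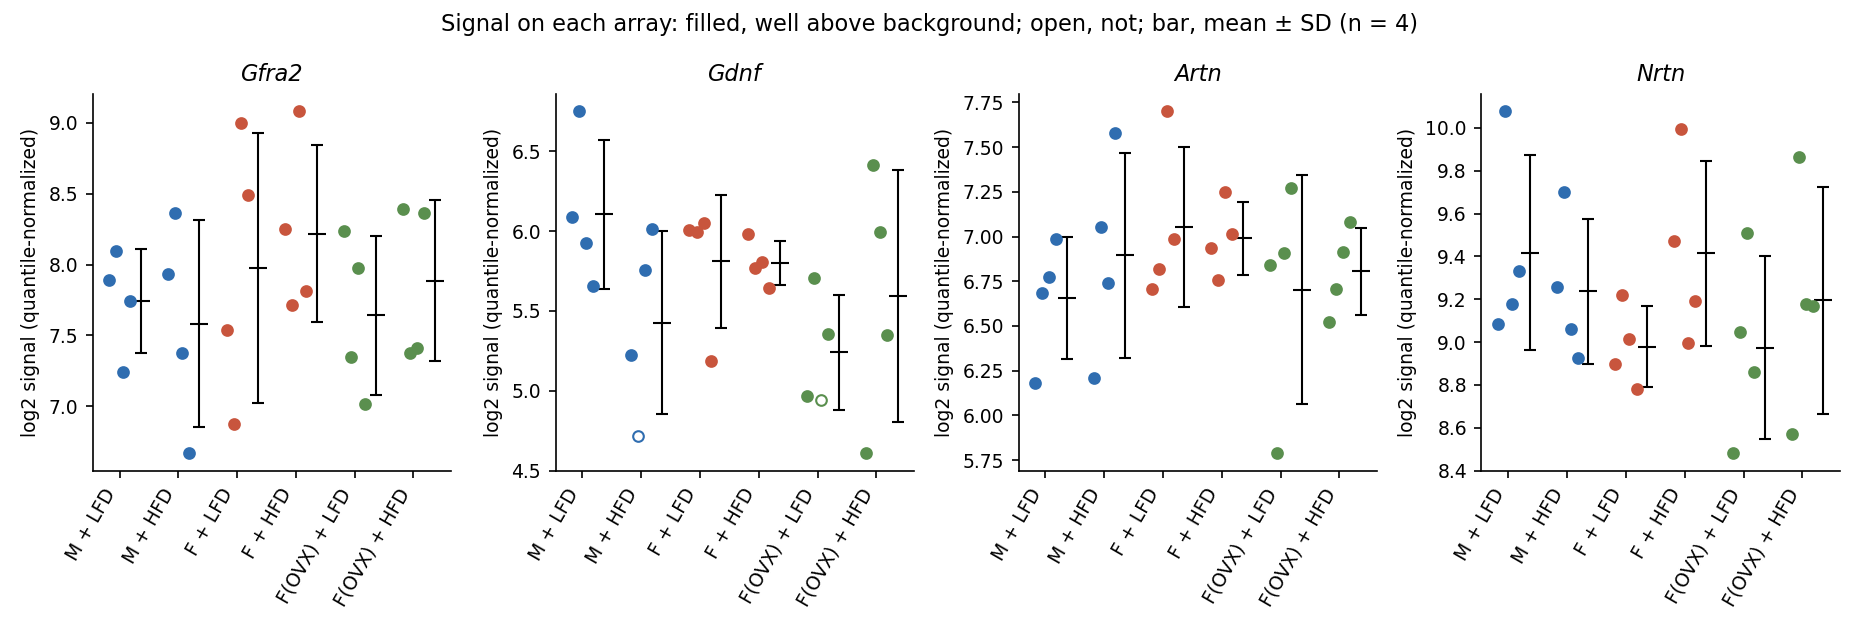
Log2 signal of Gfra2, Gdnf, Artn and Nrtn, brightest probe, on each of the 24 arrays by group, drawn with filled points for arrays well above background, open points for the others and bars for the mean ± SD of 4 arrays. All groups overlap for Gfra2, Artn and Nrtn, and Gdnf runs lower in M + HFD (5.43 ± 0.58) than in M + LFD (6.11 ± 0.47).

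The first set of comparisons asked what HFD changed within each sex and surgery. A probe was called where the fold change was at least 1.5 and the unadjusted p of limma under 0.05, the thresholds of the study's methods. No probe of any diet comparison had an adjusted p under 0.05 (Benjamini-Hochberg over all probes tested), although 1594 probes in males, 900 in intact females and 877 in OVX females had an unadjusted p under 0.05. All calls below are therefore unadjusted ones, and they are read against the share of all probes called.

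In males, Ret, S100b and Gfra1 did not reach the signal needed for a test (a clear signal in each of the 4 arrays of at least 1 group). None of the 5 members tested other than Gfra3 was called, against 4.23% of all probes. Gdnf was lower by 0.68 ± 0.33 on HFD (adjusted p = 0.822, exact permutation p = 0.171), and it was called without M + HFD replicate 4 (difference -0.87) or without M + LFD replicate 4 (-0.83). Without the 2 low-Hoxb13 arrays Gdnf differed by -0.36. Sox10 differed by -0.63 ± 0.60 (exact permutation p = 0.400) with all arrays, and by 0.26 once the 2 low-Hoxb13 arrays were left out. Of the 20 enteric glia and Schwann cell markers 11 could be tested, 3 were higher and 8 lower, none was called, and the median log2 difference was -0.15 against 0.006 for all probes. Without the 2 arrays 8 of 11 were higher and 3 lower, with a median of 0.13. Of 11 enteric neuron markers 5 were higher and 6 lower, with a median of -0.22, which became 10 higher and 1 lower, 1 of them called, with a median of 0.19. The direction of glial and neuron markers in males thus turned with those 2 arrays.

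In females, S100b was the only member called of 7 tested other than Gfra3, against 1.34% of all probes. It was higher on HFD by 1.0 ± 0.43 (adjusted p = 0.988, exact permutation p = 0.114). The call was lost when any of F + HFD replicates 1, 2 or 3 or F + LFD replicates 1, 2 or 4 was left out, with differences from 0.71 to 1.07. With the replicate number as a block, which the female arrays' deviations allow, S100b kept its call and 827 rather than 378 probes were called. The differences of Sox10 (0.66 ± 0.48, exact permutation p = 0.286), Nrtn (0.43 ± 0.22, p = 0.143) and Ret (0.16 ± 0.36, p = 0.686) did not pass. Without F + LFD replicate 3, Sox10 was called, at 1.03. Of 13 glial markers tested, S100b and Sox10 included, 9 were higher and 4 lower with a median of 0.18, and 1 was called. Enteric neuron markers were higher for 14 of 15 genes with a median of 0.48, of which Phox2a, a transcription factor of autonomic neurons, was called (0.89 ± 0.33, adjusted p = 0.988). Smooth muscle markers were higher for 11 of 11 genes with a median of 0.42, none of them called. Without F + HFD replicate 2, the dimmest array of females, 0 of 14 glial and 0 of 15 neuron markers were called, against 0.872% of all probes.

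In OVX females, Sox10, S100b, Ret and Gfra1 did not reach that signal, and none of the 4 members tested other than Gfra3 was called, against 2.11% of all probes. Of 10 glial markers 8 were higher and 2 lower on HFD, with a median of 0.11. Ngfr, the low-affinity neurotrophin receptor found on glia and Schwann cells, was called (0.95 ± 0.38), as was Ednrb, the endothelin receptor of the enteric neural crest (0.63 ± 0.16), both with an adjusted p of 1. Ednrb was also the only one called of 11 enteric neuron markers, of which 9 were higher, with a median of 0.32. Smooth muscle markers were higher for 10 of 11 genes with a median of 0.72. Of them, Des (1.25 ± 0.48), Cnn1 (1.12 ± 0.40), Actg2 (0.92 ± 0.34) and Tagln (0.72 ± 0.32), which encode contractile and filament proteins, were called, each with an adjusted p of 1. Without F(OVX) + LFD replicate 3, the dimmest array, 1 glial marker was called higher, and of the smooth muscle markers none was called higher and 1 lower, with medians of 0.11 and 0.46, and 3.23% of all probes were called. The mean level of the 12 smooth muscle markers ranged from 9.56 to 10.93 in F(OVX) + LFD and from 10.73 to 11.71 in F(OVX) + HFD. Their part in the difference of Gfra3 was not tested.

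The wider GDNF and Ret pathway runs from other co-receptors and ligands to adaptors and feedback inhibitors. By diet, 1 of 22 genes tested was called higher and 1 lower in males, against 4.23% of all probes. In females 1 of 23 was called, against 1.34% of all probes, and in OVX females 1 of 22, against 2.11%. In males 22 of its 28 genes were tested, 11 higher and 11 lower, with a median of 0.02. Gdf15, a stress hormone whose own receptor also signals through Ret, was called higher (1.56 ± 0.34, adjusted p = 0.806), and Etv5, a transcription factor induced by Ret signaling, lower (-1.39 ± 0.49, adjusted p = 0.806). Without the 2 low-Hoxb13 arrays Gdf15 kept its call (1.24) and Etv5 lost it (-1.51), as Etv5 also did without M + HFD replicate 1 or 4. In females 8 of 23 were higher and 15 lower, with a median of -0.05, and Etv4, the close relative of Etv5, was called higher (0.69 ± 0.24, adjusted p = 0.988). In OVX females 11 of 22 were higher and 11 lower, with a median of -0.01, and Etv5 was called higher (1.18 ± 0.51, adjusted p = 1). This call of Etv5 was lost in 9 of 17 alternatives, among them leaving out any F(OVX) + HFD array or F(OVX) + LFD replicate 2 or 4, and its difference from males was not tested. Gfral, Pspn and Dok6 were well above background on no array.

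Tests of the difference between diet effects called 1 member. For Gdnf the effect in males minus that in OVX females was -1.03 ± 0.48 (adjusted p = 0.687), against 6.02% of all probes called. The call was lost without M + LFD replicate 1 or 2, M + HFD replicate 1 or 2, F(OVX) + LFD replicate 1, 3 or 4, or F(OVX) + HFD replicate 2 or 3, with differences from -1.06 to -0.75, and without both low-Hoxb13 arrays it was -0.71. For males minus females (3.22% of all probes called) and OVX females minus females (1.74%), 0 of 7 members other than Gfra3 were called. The nearest was S100b, with -1.90 ± 0.96 in males minus females (adjusted p = 0.969). In the average over the 3 pairs of diets, 0 of 7 were called, against 0.713% of all probes.

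The second set of comparisons set OVX against intact females, where Ret was called lower in OVX females on both diets and Sox10 on LFD. On LFD, Ret was lower by 1.67 ± 0.70 (adjusted p = 1) and Sox10 by 1.54 ± 0.62 (adjusted p = 1), so 2 of 7 members other than Gfra3 were called, against 1.79% of all probes. On HFD, Ret was lower by 0.92 ± 0.32 (adjusted p = 0.577), and 1 of 7 was called, against 3.52% of all probes. Sox10 on HFD was at -1.0 ± 0.56 (exact permutation p = 0.200), and S100b at -0.71 ± 0.38 on LFD (p = 0.114) and -1.25 ± 0.56 on HFD (p = 0.143). Gfra3 differed by 0.01 ± 0.31 on LFD and by 0.22 ± 0.17 on HFD (exact permutation p = 1 and 0.286).

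Ret and Sox10 were well above background on 4 of 4 F + LFD but on 2 of 4 F(OVX) + LFD arrays, so that they entered the test through the group in which they were high, and without a filter on dim probes both lost their call on LFD. Ret on HFD likewise entered through F + HFD, with 4 of 4 arrays well above background against 3 of 4 in F(OVX) + HFD. The differences therefore rest in part on signals not above background. The calls also leaned on single arrays. For Ret on LFD the call was lost without F + LFD replicate 1 (-1.58), 2 (-1.75) or 3 (-1.49), and for Sox10 without those (-1.53, -1.52 and -1.18) and without F(OVX) + LFD replicate 3 (-1.0) or 4 (-1.63). Without F(OVX) + LFD replicate 3, the dimmest array, Ret was at -0.90 and kept its call. Ret on HFD lost it without F(OVX) + HFD replicate 3 (-0.84) or F + HFD replicate 2 (-0.84). By the exact permutation test of 4 arrays against 4, two-sided, Ret on LFD had p = 0.0286, the smallest that the design allows, while Sox10 on LFD and Ret on HFD had p = 0.0857. This test used the same signals, those not above background included, and is no separate check of the calls.

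Markers of enteric neurons, the other cells of this system, were also lower in OVX females. Of 13 enteric neuron markers tested on LFD, 10 were lower and 5 of these called (1.79% of all probes were called), with a median of -0.65 against 0.01 for all probes. On HFD 13 of 15 were lower and 9 called (3.52% of all probes), with a median of -1.0. Markers that are dim in OVX females entered these counts through the intact females, so the counts describe the genes tested and not the whole list. Prph, which encodes the neuronal filament peripherin, was at -2.05 ± 0.55 on LFD and -1.82 ± 0.73 on HFD. Elavl4, an RNA-binding protein gene of neurons, was at -0.98 ± 0.19 on LFD and -0.94 ± 0.36 on HFD. These genes were chosen after their values were seen, and their adjusted p was 1 on LFD and 0.577 on HFD. The log2 signal of Prph was 7.66, 6.58, 7.92 and 5.47 in F + LFD and 5.15, 5.63, 4.40 and 4.26 in F(OVX) + LFD, so that 1 intact female fell among the OVX values. Prph was well above background on 2 of 4 F(OVX) + LFD and 3 of 4 F(OVX) + HFD arrays, and its differences are no exact folds.

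Of 13 glial markers tested, 10 were lower on LFD with a median of -0.23 and 8 were lower on HFD with a median of -0.21. On each diet 2 were called, against 1.79% of all probes on LFD and 3.52% on HFD. They were Ngfr and Sox10 on LFD, where Sox10 entered through the intact females, and Ngfr and Kcna1 on HFD. Ngfr, which was well above background on 23 arrays, was at -1.60 ± 0.41 on LFD and -1.04 ± 0.38 on HFD. Smooth muscle markers were lower for 10 of 11 genes on LFD (median -0.74) and for 11 of 11 on HFD (median -0.47), with 0 and 2 called, against the same shares. Fibroblast markers were lower for 7 of 7 on both diets, with 0 called. The level of the 15 neuron markers well above background on at least 12 arrays, taken as a mean over genes, ranged from 6.92 to 8.03 in F + LFD and from 6.30 to 6.88 in F(OVX) + LFD. The part of muscle and neuron content in the differences of Ret and Sox10 was not tested, and OVX and slide cannot be told apart. Without the dimmest arrays the neuron counts were 4 of 13 and 5 of 15 called lower, with 3.02% and 3% of all probes called. On HFD neuron and smooth muscle markers were mostly lower in males than in intact females as well (given below).

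**Figure D3:**
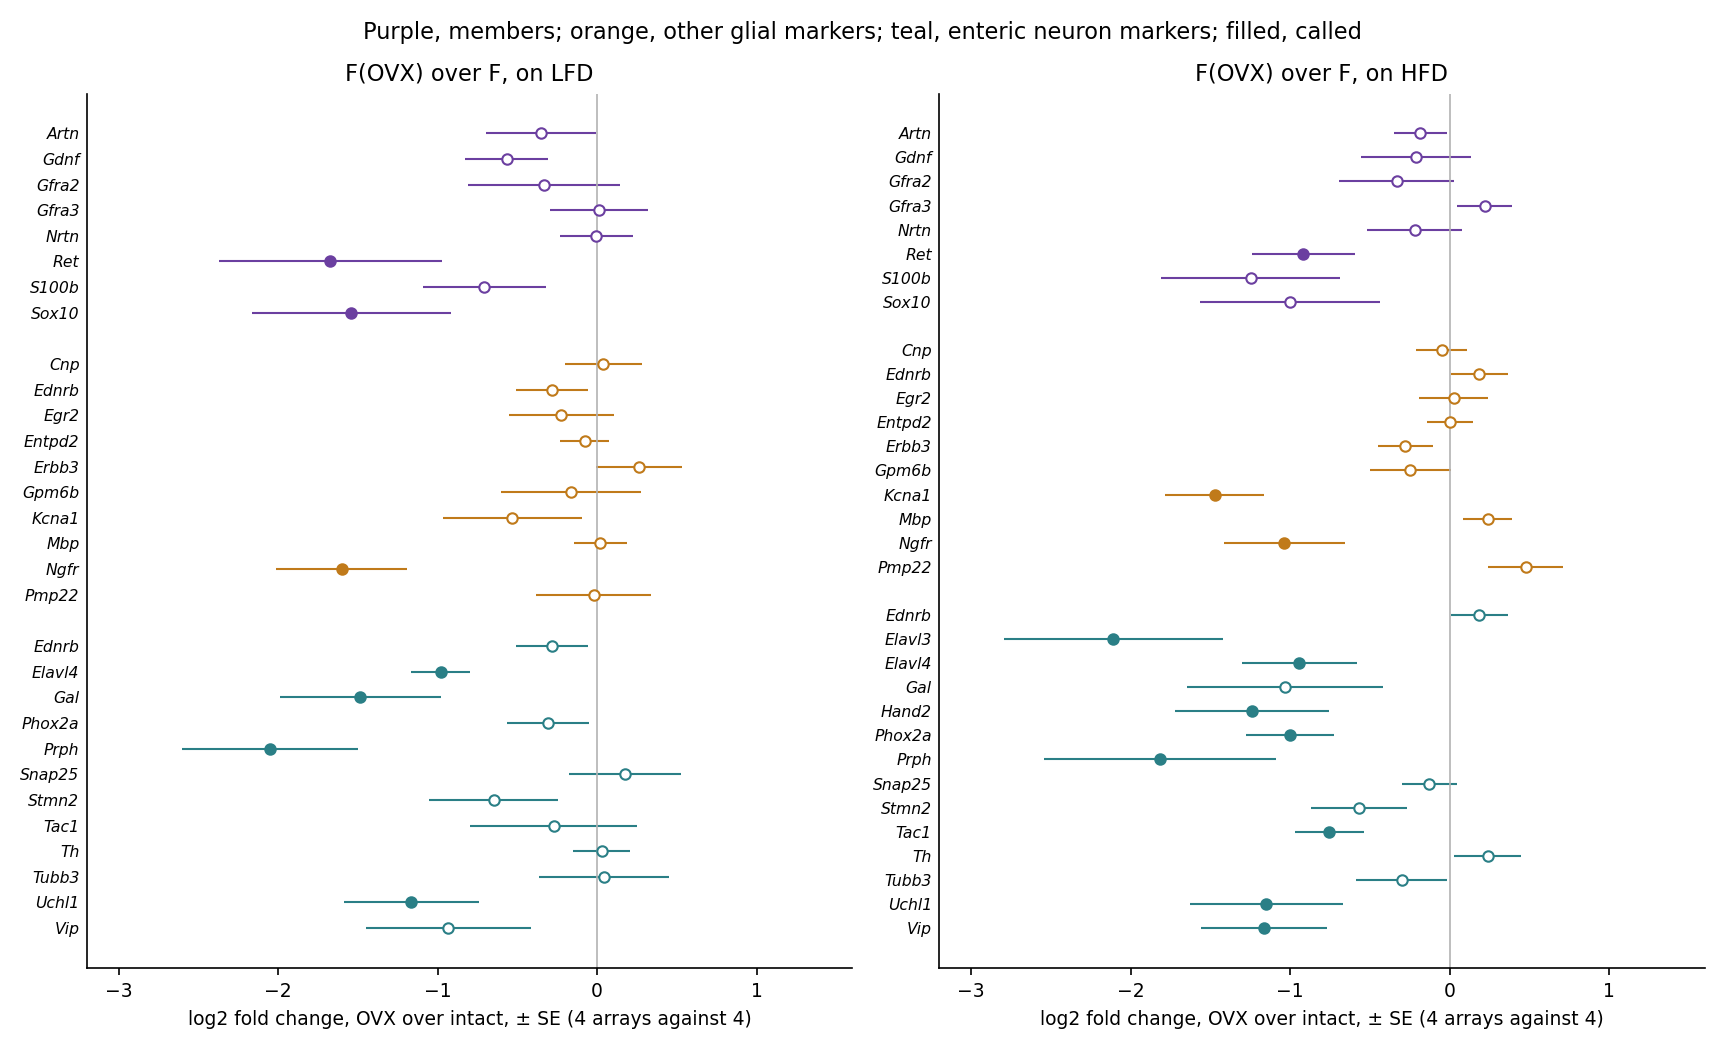
Log2 fold change (OVX over intact females, with its SE, 4 arrays against 4) on LFD and on HFD for the tested members, the other glial markers and the enteric neuron markers, 1 gene per line (not every list gene is drawn), filled where called and open where not (Ednrb stands in both lists). Ret lies at -1.67 and -0.92, Prph at -2.05 and -1.82, and Gfra3 at 0.01 and 0.22.

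Between males and intact females no member was called on LFD (4.12% of all probes) or HFD (8.63%), with 0 of 7 members other than Gfra3 each time. Of 13 glial markers 1 was called lower in males on LFD. Without the 2 low-Hoxb13 arrays none of 13 was, with 4.63% of all probes called. On HFD 9 of 13 were lower and 2 called. Without the dimmest array 3 of 14 were called lower, against 7.05% of all probes. Of 15 enteric neuron markers on HFD 10 were lower in males (median -0.53, 1 called). All 11 smooth muscle markers were lower there (median -0.65, 0 called). On LFD 10 of 13 neuron markers were higher in males, but 11 of 13 lower without the low-Hoxb13 arrays. Among the members S100b came nearest, at -1.19 ± 0.53 in males on HFD (exact permutation p = 0.143). Gfra3 differed by 0.06 ± 0.23 on LFD and -0.21 ± 0.18 on HFD (adjusted p = 0.949 and 0.606).

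Whether Gfra3 followed glia was then asked from array to array, with the group means removed so that the diet difference on which it had been picked played no part. Deviations were correlated over the 24 arrays with 7 members and 12 further glial markers that were well above background on at least 12 arrays, 19 partners in all. With Sox10, Pearson's r was -0.16 (permutation p = 0.533, adjusted p = 0.742) and Spearman's rho -0.10 (p = 0.679). With S100b, r was -0.22 (p = 0.281, adjusted p = 0.668) and rho -0.25 (p = 0.275). Leaving out the 2 arrays farthest from the partner's median gave r = -0.11 for Sox10 and -0.06 for S100b. Of the 19 partners 16 had a negative r, the range was -0.59 to 0.19, and none had an adjusted p under 0.05.

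An unadjusted permutation p under 0.05 was found for 4 of the 19 partners, all with a negative r. Kcna1, a potassium channel gene, had r = -0.56 (p = 0.00685, adjusted p = 0.128, rho = -0.57). Without the 2 arrays farthest from the median of Kcna1, its r was -0.41 (permutation p = 0.0705). Among the members, Ret had r = -0.22 (p = 0.443), Artn -0.41 (p = 0.146), Gfra2 -0.13 (p = 0.606), Gdnf -0.11 (p = 0.625) and Nrtn 0.19 (p = 0.434). The sign was not the same on the 3 slides. With S100b, r was -0.80 over the 8 arrays of males (p = 0.0452 by permutation within groups), -0.49 in females and 0.43 in OVX females, and with Sox10 it was -0.72, -0.39 and 0.25. Without M + LFD replicates 1 and 2, r was -0.06 with S100b and -0.04 with Sox10 over the remaining 22 arrays.

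The glial and neuronal members, by contrast, moved with each other. Described in the same way over 24 arrays, r was 0.79 between Sox10 and Ret, 0.78 between Sox10 and S100b and 0.61 between Ret and S100b, and without the 2 low-Hoxb13 arrays 0.73, 0.72 and 0.46. S100b also followed Ngfr (0.88), and Gdnf followed S100b (0.57), Ret (0.52) and Sox10 (0.49). The mean of the enteric neuron markers had r = 0.93 with S100b, 0.82 with Sox10 and -0.24 with Gfra3. For the mean of 14 glial markers, r with Gfra3 was -0.43 over all arrays. It was -0.84 on the slide of males, -0.82 on that of intact females and 0.42 on that of OVX females. A negative r with Gfra3 was not particular to glia, as fibroblast (-0.50), endothelial (-0.44) and smooth muscle (-0.37) means also had one. Epithelial (0.335) and adipocyte (0.155) means had a positive r. The cause was not tested. The share of probes well above background on an array, which all these points have in common, had r = 0.58 with Sox10, 0.37 with S100b and -0.19 with Gfra3.

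The genes most like Gfra3 came from elsewhere. Among 11878 genes well above background on all 24 arrays, the 8 with the highest Pearson r over the 24 log2 signals, group means kept, were Ghrl (0.79), Gcg (0.79), Tenm4 (0.78), Bcs1l (0.77), Creb3l1 (0.76), Aadac, Eef1akmt1 and Isg20 (each 0.75). Ghrl encodes the hormone ghrelin and Gcg encodes proglucagon, from which gut endocrine cells make glucagon-like peptides. Tenm4 encodes a teneurin, Creb3l1 a membrane-bound transcription factor, Aadac a lipid deacetylase and Bcs1l a chaperone of mitochondrial complex III. As the top of a ranking they carry no test. With group means removed, r was 0.84 for Gcg and 0.74 for Ghrl, and 0.70 and 0.45 once the 2 arrays farthest from the median of each were left out. Within slides it was 0.63, 0.96 and 0.94 for Gcg and 0.58, 0.95 and 0.70 for Ghrl in males, females and OVX females. Of the members and glial markers ranked in this way, Nrtn stood highest, at position 2394, and Cnp next, at 3054.

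The log2 signal of Gcg was 12.06, 12.57, 9.85 and 11.72 in F + LFD and 12.27, 12.20, 10.84 and 12.27 in F + HFD. In OVX females it was 11.51, 11.40, 11.43 and 9.82 on LFD and 11.80, 12.87, 12.04 and 11.96 on HFD. The arrays lowest for Gcg in females and OVX females on LFD, replicates 3 and 4, were also the lowest of their groups for Gfra3. The Gcg promoter is shown as that of the gene whose deviations came closest to those of Gfra3 among these 8, with TATA boxes (TATAAA, or TTTATA on the other strand, in 12.4% of all windows) in capitals. The window is the 250 bases before the start, chr2:62483654-62483903 on the minus strand (RefSeq, GRCm38.p6).
Gcg: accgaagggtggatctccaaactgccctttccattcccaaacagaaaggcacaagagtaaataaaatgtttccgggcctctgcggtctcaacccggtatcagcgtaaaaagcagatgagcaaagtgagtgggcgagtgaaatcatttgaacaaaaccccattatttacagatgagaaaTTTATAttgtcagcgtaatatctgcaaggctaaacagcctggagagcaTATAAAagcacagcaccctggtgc
It held 2 TATA boxes, the nearer starting 24 bases before the start site, and no CCAAT box or SOX-type motif.

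**Figure D4:**
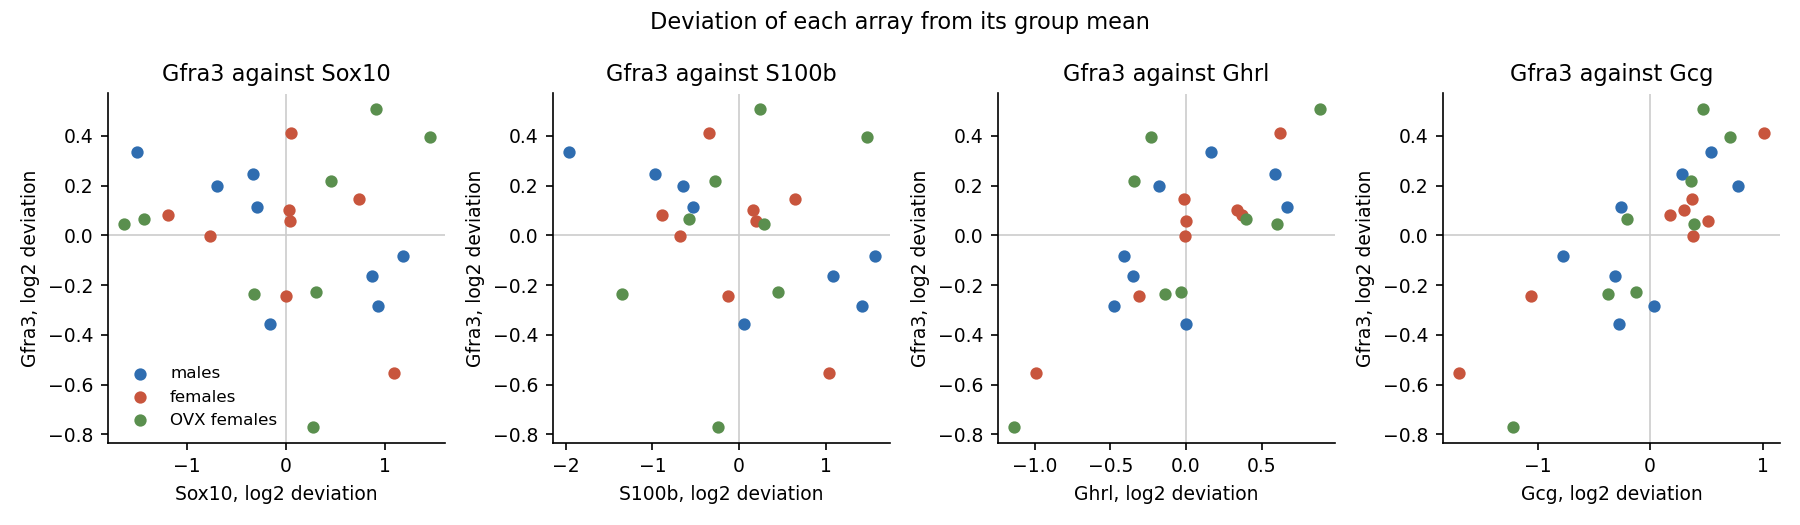
Deviation of Gfra3 from its group mean (log2 units, vertical axis) against that of Sox10, S100b, Ghrl and Gcg (log2 units, horizontal axes) for the 24 arrays, colored by males, females and OVX females. The points fall slightly for Sox10 (r = -0.16) and S100b (r = -0.22), neither passing the test, and rise for Ghrl (r = 0.74) and Gcg (r = 0.84), where 1 F + LFD and 1 F(OVX) + LFD array lie far to the lower left.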

How the data were processed

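RNA of 24 colon samples was hybridized to one-color Agilent mouse arrays. The authors deposited the scanner tables of Agilent Feature Extraction 11.0.1.1, of which the background-subtracted and spatially corrected signal intensity of each spot and its flags (well above background, outlier, saturated) were used here. The deposited intensity was set to log2 and quantile-normalized over the 24 arrays, as in the study's methods, spots of a probe were averaged, and control spots and outlier flags were left out. Accessions were matched to RefSeq symbols (GRCm38.p6), which named 58.3% of probes. The array's own annotation is of another build, so no probe position is given. The brightest probe stands for a gene.

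Probes with a clear signal (the scanner's flag) in each of the 4 arrays of at least 1 compared group were tested with limma 3.58.1 (R 4.3.3) within each pair of groups, and contrasts over 24 arrays used 1 fit. The labels number 4 samples per group without naming animals, so p-values measure the spread between these samples. Correlations used 100000 permutations within groups. With 4 arrays a group, their number limits the precision. The fit was tested on simulated data. Alternatives were normexp correction (offset 50), other filters and scaling, a plain t-test, the replicate block and leaving out arrays. Same-numbered LFD and HFD arrays deviated together in females (r = 0.26 to 0.58), but not in males (-0.26 to 0.005) or in all OVX pairs (-0.07 to 0.33). The replicate block thus had a basis in the diet comparison of females, and for other comparisons it is listed only among the alternatives. The named genes were all members, list genes called in a diet comparison (at most 5 a list), the 8 genes most like Gfra3, and Hoxb13. Lists not otherwise named were interstitial cell of Cajal, fibroblast, endothelial, adipocyte, epithelial, immune, neurotrophin and colon position genes. The members and lists were chosen with earlier results of these data known. Some list genes are counted with their lists but not reported here by name.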

Additional observations from a re-analysis of the deposited data

Results flagged for a closer look

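In 3 of the 54 sets of 4 arrays examined for the members, 1 array lay far from the others, and chance alone gives about 5% of such sets. Gdnf was at 5.19 in F + LFD replicate 4, against 6.0 to 6.05 on the other arrays of that group. Ret was at 5.89 in F(OVX) + HFD replicate 2, against 5.09 to 5.19, and at 2.09 in F(OVX) + LFD replicate 3, against 4.92 to 5.44. The last array was the dimmest of the series and the Ret probe was not well above background on it.

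The diet effect on Gdnf differed between males and OVX females by -1.03 on the log2 scale at an unadjusted p under the threshold, with an adjusted p of 0.687.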

How the results depend on the processing

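The member calls were few, unadjusted and easily lost. S100b in females lost its call in 12 of 16 alternatives, Sox10 on LFD (OVX against intact) in 10 of 16, Ret in 7 of 16 on LFD and 6 of 16 on HFD, and the Gdnf difference in 13 of 23, and in no alternative did any of these turn in direction. Over all single genes followed other than Gfra3 and all alternatives, 482 values kept direction and side of the threshold. Of the rest, 167 lost a call, 3 gained a call and 17 changed sign. The alternatives without the dimmest arrays were chosen after seeing the data. The cause of each change was not tested.

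The number of probes called varied most. With normexp background correction it was, for diet, 688 in males, 94 in intact and 312 in OVX females, 463 and 1151 for males against females on LFD and HFD, 182 and 300.0 for OVX against intact females, 58 for the average, and 593 and 198 for the diet effects of males and of OVX females minus that of females. Without a filter it was 786 in females and 1051 in OVX females, 1974 for males against females on LFD, 999 and 1654 for OVX against intact, 584 for the average, and 1414 and 1104 for those differences. With only probes detected on all 24 arrays it was 171 in females, 618 and 1482 for males against females, 220 and 488 for OVX against intact, 70 for the average and 285 for OVX females minus females. The methods' t-test gave 600 in males, 177 in intact and 251 in OVX females, 777 for males against females on LFD, and 263 and 521 for OVX against intact. One fit of all arrays gave 334 in OVX females. Without the dimmest arrays it was 861 in OVX females, 860 for OVX against intact on LFD, and 570 and 262 for the differences. Without the low-Hoxb13 arrays the average had 342.

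With the replicate block, 827 probes were called in females, 2013 for males against females on LFD, and 1584 and 794 for those differences. Under the block Ret and Sox10 on LFD (OVX against intact) and the Gdnf difference lost their calls. The deviations gave a basis for the block only in the diet comparison of females, and pairing across slides was not examined.

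Leaving out 1 array at a time gave 758 to 1860 calls in males, 217 to 1075 in intact and 266 to 861 in OVX females, 819 to 2164 and 1982 to 2993 for males against females, 432 to 860 and 787 to 1398 for OVX against intact, 171 to 315 for the average, and 570 to 1714, 275 to 829 and 1133 to 2402 for the differences of males minus females, OVX females minus females and males minus OVX females. The diet differences that changed sign ran from -0.42 to 0.15 (males) and -0.13 to 0.58 (females) for Gfra2, -0.34 to 0.040 (males) and -0.0012 to 0.43 (OVX females) for Nrtn, -0.11 to 0.36 (females) for Ret, -0.18 to 0.15 (females) and -0.20 to 0.29 (OVX females) for Artn, and -0.22 to 0.070 (females) for Gdnf. Without both low-Hoxb13 arrays Gfra2 in males was at 0.092 and Sox10 at 0.26, and without the dimmest array Artn in females was at 0.013.

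The correlation of Gfra3 with Sox10 was 0.013 with group means kept and 0.245 within OVX females, and that with S100b was 0.429 within OVX females and -0.798 within males.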

Other observations

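The lists of other cell types gave the following diet differences. In males, 4 of 5 colon position genes tested were called (4.23% of all probes were), Hoxb13 (5.56 ± 2.43, SE) and Hoxd13 (4.75 ± 1.39) higher and Hoxb6 (-3.27 ± 1.41) and Hoxb7 (-2.92 ± 1.23) lower on HFD, with adjusted p of 0.806 to 0.814. The low-Hoxb13 arrays lie in M + LFD, and without them 0 of 5 of these genes were called. Cdx2, a transcription factor of intestinal epithelium, was called lower in males (-1.77 ± 0.52) and higher in OVX females (1.16 ± 0.51), and Cidec, a lipid droplet gene of fat cells, lower in males (-3.06 ± 1.13). Without the low-Hoxb13 arrays Cdx2 (-1.24) and Cidec (-1.98) in males lost their calls, and Cdx2 in OVX females lost its call in 11 of 17 alternatives. Ano1, the chloride channel of interstitial cells of Cajal, was called higher in males (1.54 ± 0.50) and Etv1, a transcription factor of the same cells, in OVX females (0.63 ± 0.25). Without the low-Hoxb13 arrays Ano1 was at 0.66 and not called, and Etv1 lost its call in 7 of 17 alternatives. In intact females no gene of the Cajal, fibroblast, endothelial, adipocyte, epithelial, immune, neurotrophin or colon position lists was called. Immune cell markers were lower on HFD for 5 of 7 genes in intact females and 7 of 7 in OVX females, with medians of -0.29 and -0.20 and none called. Endothelial markers were higher for 6 of 6 genes in OVX females, with a median of 0.21, and neurotrophin genes for 4 of 5, with a median of 0.39, none called.

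Since Ghrl and Gcg headed the genes most like Gfra3, a list of 30 enteroendocrine genes was drawn up after that ranking had been seen, and it is given as a description only. Of the 26 well above background on at least 12 arrays, 15 had a positive r with the deviations of Gfra3, with a median of 0.04, and 4 were above 0.5, namely Gcg, Ghrl, Cck and Insl5. The general endocrine markers Chga (-0.16) and Chgb (-0.10) did not share the pattern over all 24 arrays. Without the 2 low-Hoxb13 arrays their r was 0.10 and 0.20. Other list genes also moved without those arrays, to 0.66 for Sct, 0.64 for Pcsk1 and 0.62 for Tph1, but to -0.74 for Isl1. The mean of the list had r = 0.88 with Gfra3 in females, 0.90 in OVX females and -0.62 in males. On HFD 13 of the 26 genes were higher in males, with 22 in intact and 19 in OVX females, with median log2 differences of 0.02, 0.32 and 0.55.

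The second Nrtn probe was well above background on 12 arrays, the second Gfra2 probe on 2 and the second Gdnf probe on 1, so for these genes the result rests on the brighter probe.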
